A study of Lentinus brumalis with 11 samples.

Results

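Genes 713930, 1557562 and 1353775 encode AA5_1 copper radical oxidases of the white-rot fungus Polyporus brumalis, and they are 3 of the 18244 genes in the count table. They were selected as the AA5_1 entries of the study's table of auxiliary activity enzymes that were transcribed on wheat straw and detected among the secreted proteins. Their levels on straw and in the control therefore entered the choice, and that comparison is given here as a description, without a test. A log2 normalized count of 12 was the limit for high transcription, applied to averages over sets of co-regulated genes. Taken gene by gene, 713930 and 1557562 lay above 12 in every straw library and below it in every control library. Gene 1353775 had mean levels of 9.39, 11.21 and 8.98 on Days 4, 10 and 15, below 12, and exceeded it in 1 of 3 Day 10 libraries, at 12.11. All 3 genes passed the filter on low counts.

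The strain grown was the dikaryon BRFM 985, and the reads were counted on gene models of the genome of BRFM 1820, a monokaryon derived from it. Solid-state fermentation (SSF), the growth of mycelium on moist solid substrate, was run on sterilized wheat straw for 4 days (2 libraries), 10 days (3 libraries) or 15 days (3 libraries). The control was a 10-day culture on 2% malt extract (3 libraries). The inoculated straw also received a solution of CuSO4, FeSO4 and MnSO4, and the labels name no such addition for the control, so substrate, solid or liquid growth and added metals cannot be told apart in comparisons with the control. Per the labels the straw was inoculated from a 6-day culture on malt extract, while the paper's methods name an older one. Counted with the days of the labels, the Day 4 cultures were as old as the control and those of Days 10 and 15 were older. With the older inoculum, the Day 4 cultures were older than the control too. Culture age therefore cannot be told apart either on Days 10 and 15. Libraries held 20368063 to 42408348 counts. The third Day 10 library stood somewhat apart, with Spearman correlations across genes of 0.986 and 0.987 with the other Day 10 libraries, which had 0.992 with each other. The RNA was extracted from whole fermented straw or mycelium, so a change in the share of cells that transcribe a gene and a change in RNA per cell cannot be told apart.

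Copper radical oxidases of subfamily AA5_1, of which glyoxal oxidase of Phanerochaete chrysosporium is the best known, oxidize small aldehydes and related compounds with a copper ion and a protein radical, and reduce oxygen to hydrogen peroxide. White-rot fungi secrete them together with class II peroxidases (family AA2), which need hydrogen peroxide to oxidize lignin or manganese. Some flavoenzymes of family AA3, among them aryl alcohol oxidases (AA3_2) and alcohol oxidases (AA3_3), are further sources of hydrogen peroxide. The paper also counts predicted dehydrogenases in this family. No sequences of these genes or proteins were used here.

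Transcripts of 713930 and 1557562 were among the most abundant of the fungus on straw and scarce in malt culture. Those of 1353775 were far less abundant on straw, with the largest changes of the 3 between Days 4 and 10 and after Day 10. All 3 genes peaked on Day 10 of SSF, with lower levels on Days 4 and 15. The rise to Day 10 and the fall after it passed the test for 713930 and 1353775 in every alternative tried, and the smaller ones of 1557562 did so in some of them.

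Gene 713930 was the most abundant of the 3 in every library. Its normalized counts, scaled with DESeq2 size factors, were 193803 and 206070 on Day 4, 341785, 335694 and 300643 on Day 10 and 160465, 194945 and 168342 on Day 15, against 363, 327 and 310 in the control. Every Day 10 library lay above every Day 4 and Day 15 library, and those of Days 4 and 15 overlapped. On the scale of log2(normalized count + 1), the level averaged 17.61 ± 0.06 on Day 4 (SD, n = 2), 18.31 ± 0.10 on Day 10 and 17.41 ± 0.15 on Day 15, and 8.38 ± 0.12 in the control (SD, n = 3 each). The gene alone took 0.629% ± 0.0159 of all counts on Day 4 (SD, n = 2), 1.16% ± 0.0544 on Day 10 and 0.604% ± 0.0441 on Day 15 (SD, n = 3 each).

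Gene 1557562 was the second most abundant of the 3 on straw and the scarcest in the control. Normalized counts were 114497 and 125617 on Day 4, 168571, 186195 and 134574 on Day 10 and 110627, 126264 and 114102 on Day 15, against 81, 67 and 52 in the control. The Day 10 libraries again lay above all others, with the third of them closest to the remaining straw libraries, and Days 4 and 15 overlapped. Mean log2 levels were 16.87 ± 0.09 on Day 4 (SD, n = 2), 17.30 ± 0.24 on Day 10 and 16.83 ± 0.10 on Day 15, and 6.06 ± 0.32 in the control (SD, n = 3 each).

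Gene 1353775 gave far fewer reads on straw. It had 632 and 710 normalized counts on Day 4, 1725, 1733 and 4424 on Day 10 and 453, 552 and 510 on Day 15, against 128, 108 and 124 in the control. The 4 groups did not overlap, and the third Day 10 library stood far above the other Day 10 libraries. Mean log2 levels were 9.39 ± 0.12 on Day 4 (SD, n = 2), 11.21 ± 0.78 on Day 10 and 8.98 ± 0.14 on Day 15, and 6.91 ± 0.13 in the control (SD, n = 3 each). The coefficient of variation of its normalized counts was 59.2% on Day 10 and between 8.27% and 9.79% in the other groups. In the fit over all genes its biological coefficient of variation, the square root of the fitted dispersion, was 0.249, above that of 98.2% of the 4340 genes of similar abundance. The values for 713930 and 1557562 were 0.112 and 0.137, and the median of all genes was 0.124.

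**Figure D1:**
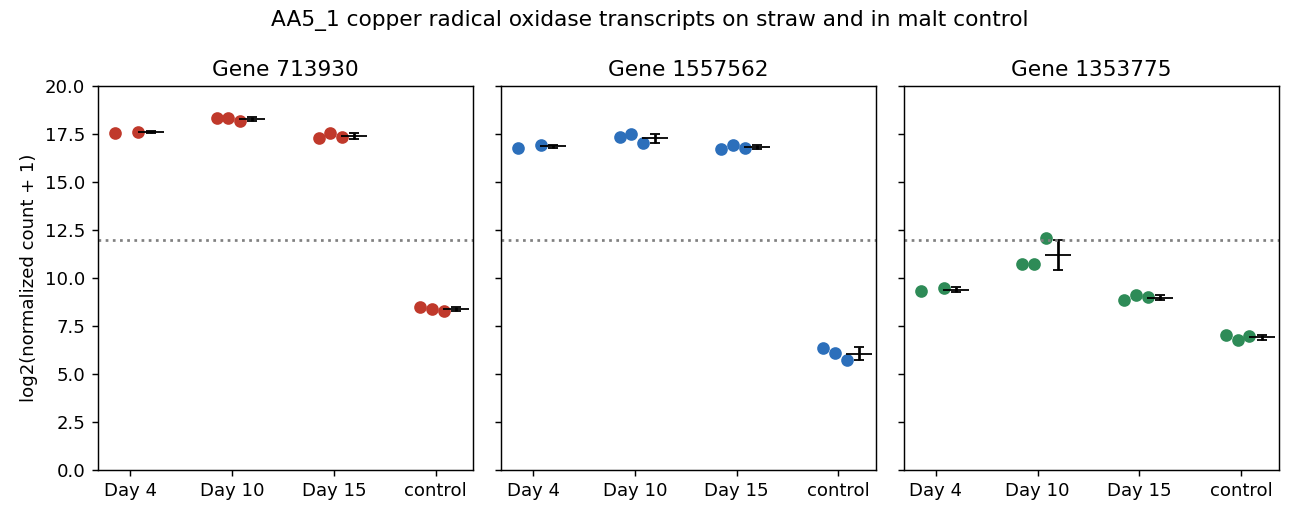
Level of each AA5_1 gene in every library as log2(normalized count + 1), for Days 4, 10 and 15 on straw and the malt control. Points are libraries, black bars are the group mean ± SD, and the dotted line marks a level of 12. Genes 713930 and 1557562 lay between 16.76 and 18.38 on straw and between 5.73 and 8.51 in the control, whereas 1353775 passed the dotted line in 1 library of Day 10.

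Levels of different genes were compared as CPM per kb of gene (CPM being the count scaled to the library total). The length was the annotated span from start to end of the gene, 2084 bp for 713930, 1847 bp for 1557562 and 1842 bp for 1353775. Introns were not taken out of this span, so ranks and ratios between genes also depend on them. On this scale 713930 had 3020 ± 76.3 on Day 4 (SD, n = 2), 5550 ± 261 on Day 10 and 2900 ± 211 on Day 15, and 6.74 ± 0.678 in the control (SD, n = 3 each). Gene 1557562 had 2040 ± 96.9, 3130 ± 431 and 2190 ± 87.7 at the same straw days, and 1.52 ± 0.36 in the control. For 1353775 the values were 11.5 ± 0.74, 51.1 ± 31.6 and 9.48 ± 0.669, and 2.74 ± 0.276 in the control. Among the 18240 genes with a length, 713930 ranked between 6 and 8 in the Day 10 libraries and between 18 and 20 on Days 4 and 15. Gene 1557562 ranked between 10 and 15 on Day 10 and between 25 and 30 at the other straw days. Gene 1353775 ranked between 1322 and 3089 on Day 10 and between 5932 and 7262 otherwise on straw. In the control, 713930 ranked no better than 8130, 1353775 no better than 11271 and 1557562 no better than 12637.

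The order of the genes changed between straw and control. Per kb, 713930 exceeded 1557562 by 1.45 and 1.5 times on Day 4, by 1.60 to 1.98 times on Day 10 and by 1.29 to 1.37 times on Day 15, against 3.96 to 5.26 times in the control. Gene 1557562 exceeded 1353775 by 30.3 to 243 times in the straw libraries, but reached only 0.421 to 0.633 of its level in the control libraries. The 30.3 belonged to the third Day 10 library, and the other straw libraries lay between 97.5 and 243.

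Day 4 was the first straw stage sampled, and all 3 genes were already higher there than in the malt control, where 30.1% of the 15462 genes tested were higher and 32.2% were lower at an adjusted p of 0.05 (edgeR's quasi-likelihood test). The log2 fold change on Day 4 was 10.77 for 1557562 (SE 0.23), 9.18 for 713930 (SE 0.17) and 2.44 for 1353775 (SE 0.34). These are differences of 1740, 581 and 5.41 times. Genes 1557562 and 713930 stood at ranks 4 and 14 from the top of all genes tested, and 1353775 at rank 674.

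On Day 10 the differences from the control were at their widest, with all 3 genes again higher, as were 31.5% of all genes tested, while 31.1% were lower. Gene 1557562, at 11.23 (SE 0.23), and 713930, at 9.91 (SE 0.17), had the largest and the second largest log2 fold change of all genes tested. Gene 1353775 had 4.44 (SE 0.33), at rank 150, and 3.83 without the third Day 10 library. On Day 15, when 33.0% of genes were higher and 33.0% lower than in the control, the log2 fold changes of the 3 higher genes were 10.75 for 1557562 (SE 0.23), 9.01 for 713930 (SE 0.16) and 2.05 for 1353775 (SE 0.32). Gene 1557562 kept the largest value of all genes tested, and 713930 ranked 8. Since the genes were chosen for transcription on straw, these shares and ranks only place the values among all genes, and no p is attached to them.

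The contrasts between straw days were not used in the choice, although earlier results of these data were known when it was made. They were tested with edgeR's quasi-likelihood test, with Benjamini-Hochberg adjustment over all 15462 genes tested. Between Days 10 and 4, 3 of 3 genes were higher on Day 10, where 22.3% of all genes were higher and 22.0% lower (3450 and 3402 genes, or 4543 and 2477 with scaling by library totals). Gene 1353775 rose by a log2 fold change of 2.00 (SE 0.35, adjusted p = 0.00045), 713930 by 0.73 (SE 0.13, adjusted p = 0.00054) and 1557562 by 0.47 (SE 0.17, adjusted p = 0.039). All 3 Day 10 libraries lay above both Day 4 libraries for each gene, but the share of all genes tested that separate in this way was not counted. Without the third Day 10 library the log2 fold changes were 1.41, 0.81 and 0.61 in the same order, with edgeR adjusted p-values of 7e-07, 3.8e-05 and 0.0019. The call for 1557562 was lost in 9 of 18 alternatives, with an adjusted p of 0.19 at most. Those 9 include leaving out either Day 4 library (log2 fold changes 0.40 and 0.54, adjusted p = 0.19 and 0.078 by edgeR) and the first or second Day 10 library (0.46 and 0.37, adjusted p = 0.066 and 0.12 by edgeR).

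Between Days 15 and 10 the direction was the opposite. All 3 genes were lower on Day 15, where 12.4% of all genes were lower and 11.7% higher. Gene 1353775 fell by 2.39 on the log2 scale (SE 0.30, adjusted p = 0.00018 by edgeR), which placed it at rank 48 from the bottom of all genes tested. Gene 713930 fell by 0.90 (SE 0.11, adjusted p = 0.00018), or 1.87 times, and 1557562 fell by 0.48 (SE 0.15, adjusted p = 0.033), or 1.40 times. Every Day 15 library lay below every Day 10 library for each gene, again without a count of such genes among all genes tested. Leaving out the third Day 10 library changed the log2 fold change of 1353775 to -1.78 (edgeR adjusted p = 3.1e-07), of 713930 to -0.97 (adjusted p = 1.8e-05) and of 1557562 to -0.61 (adjusted p = 0.0028). For 1557562, 7 of 18 alternatives gave an adjusted p above 0.05, 0.10 at most, among them leaving out any 1 of the Day 15 libraries or the first or second Day 10 library.

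Over the whole interval between Days 15 and 4 none of the 3 genes passed the edgeR test, although 28.6% of all genes were higher and 29.2% lower on Day 15. The log2 fold changes were -0.17 for 713930 (SE 0.13, adjusted p = 0.26), -0.01 for 1557562 (SE 0.17, adjusted p = 0.95) and -0.39 for 1353775 (SE 0.33, adjusted p = 0.34). At an unadjusted p of 0.05 the count was also 0 of 3, and DESeq2's Wald test, which called 0 of 3, gave adjusted p-values of 0.15, 0.86 and 0.42. For 1353775, however, the 3 Day 15 libraries lay below both Day 4 libraries, and the call was made without the third Day 10 library (log2 fold change -0.37, edgeR adjusted p = 0.013) and with only Days 15 and 4 in the fit (-0.36, adjusted p = 0.026). Day 10 was thus the straw day with the highest level for each gene. Days 4 and 15 could not be ordered for 713930 and 1557562, whose libraries overlapped, and the value of 1557562 was above 0 in some alternatives. For 1353775 the call depended on the third Day 10 library and on which groups were fitted.

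Whether the genes changed by different amounts was tested on the per-library difference of their log2 levels, in 9 comparisons (3 pairs of genes, 3 pairs of days). The difference between 713930 and 1557562 was 0.74 ± 0.03 on Day 4 (SD, n = 2), 1.01 ± 0.15 on Day 10 and 0.57 ± 0.05 on Day 15 (SD, n = 3 each). The groups did not overlap in any of the 9 comparisons, but how often other pairs of genes separate in this way was not counted. Exact two-sided permutation tests gave p between 0.1 and 0.3, and between 0.15 and 0.3 after Benjamini-Hochberg adjustment. The smallest p these groups allow is 0.1, so none could pass 0.05, and these tests say nothing for or against a difference. A test over the 3 straw days at once was added after the data had been seen. Days accounted for 0.844 of the variance of the difference between 713930 and 1557562 over the 8 straw libraries, 0.653 of that between 713930 and 1353775 and 0.709 of that between 1557562 and 1353775. Exact permutation tests over 560 arrangements gave p = 0.00714, 0.0357 and 0.00714 in that order, or 0.0107, 0.0357 and 0.0107 after Benjamini-Hochberg adjustment over the 3 pairs. All 3 adjusted values were above 0.05 when any 1 library of Day 4 or Day 15 was left out (0.0572 to 0.157, exact permutation), and 0.00952 when any 1 of Day 10 was, the smallest p those groups allow. The gap between 713930 and 1353775 was 8.22 ± 0.06 on Day 4, 7.10 ± 0.88 on Day 10 and 8.43 ± 0.06 on Day 15, and the third Day 10 library alone had a gap of 6.09.

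The place of these transcripts beside the peroxidases that consume hydrogen peroxide shifted with time. Together the 3 AA5_1 genes took 1.01% ± 0.0339 of all counts on Day 4 (SD, n = 2), 1.74% ± 0.121 on Day 10 and 1.01% ± 0.0604 on Day 15, and 0.00219% ± 0.000238 in the control (SD, n = 3 each). The 19 AA2 peroxidase genes took 7.84% ± 0.0266 on Day 4, 3.27% ± 0.435 on Day 10 and 1.78% ± 0.103 on Day 15, and 0.109% ± 0.00901 in the control. Their share thus declined over the days at which the share of the 3 AA5_1 genes passed through its peak. These 3 genes were chosen for transcription on straw and secretion, whereas the AA2 and AA3 genes were listed from the genome. Further AA5_1 genes were not sought, so the ratio below does not compare whole families. The ratio of AA5_1 to AA2 counts was 0.126 and 0.131 on Day 4, 0.630, 0.565 and 0.430 on Day 10 and 0.509, 0.620 and 0.580 on Day 15, against 0.0216, 0.0182 and 0.0204 in the control. Both Day 4 libraries lay below all 6 later straw libraries, and Days 10 and 15 overlapped. The 36 AA3 genes took 0.898% ± 0.0339, 0.875% ± 0.258 and 0.486% ± 0.0249 on Days 4, 10 and 15, and 0.349% ± 0.0141 in the control. Their Day 10 mean rested on the third library, at 1.17%. The first and second had 0.71% and 0.743%, below the 0.922% and 0.874% of Day 4.

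**Figure D2:**
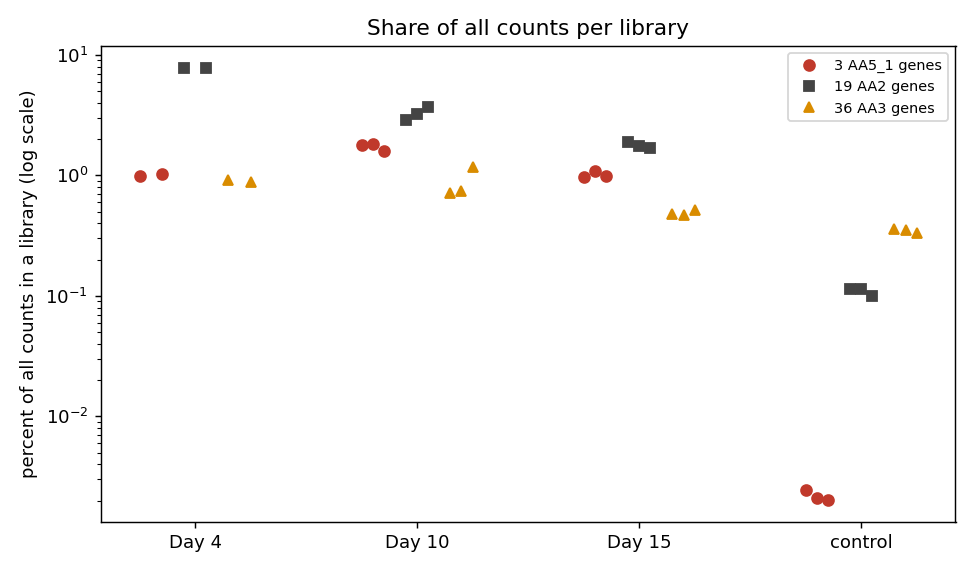
Percent of all counts in each library taken by the 3 AA5_1 genes, the 19 AA2 peroxidase genes and the 36 AA3 genes, on a log axis, for Days 4, 10 and 15 on straw and the malt control. Each point is 1 library. The AA5_1 points were highest on Day 10 (1.60% to 1.82%), while the AA2 points declined between Day 4 (7.83% and 7.86%) and Day 15 (1.70% to 1.90%).

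Gene by gene, the AA2 family, listed from the genome, moved mostly downwards over SSF. Of 19 genes, 5 were higher and 12 lower on Day 10, compared with Day 4, where 22.3% of all genes tested were higher and 22.0% lower. The median log2 fold change was -1.04, against a median of 0.03 over all genes tested. Versatile peroxidase 1359988 had the largest fall and fell by 6.85 on the log2 scale (SE 0.45, edgeR adjusted p = 1e-07), and the short manganese peroxidase 1185543 rose the most, by 2.97 (SE 0.41, adjusted p = 7.9e-05). Among versatile peroxidases, which oxidize both manganese and aromatic compounds, 1412926 rose the most, by 2.09 (SE 0.19, adjusted p = 2.4e-06). On Day 15 against Day 4, 5 AA2 genes were higher and 13 lower, against 28.6% and 29.2% of all genes tested. On Day 15 against Day 10, 1 was higher and 12 lower, against 11.7% and 12.4% of all genes. The 1 higher gene was the short manganese peroxidase 1347226, with a log2 fold change of 0.96 (SE 0.28, edgeR adjusted p = 0.025), a call lost without the first or second Day 15 library. After Day 10 the short manganese peroxidase 1487292 fell by 5.16 (SE 0.56, edgeR adjusted p = 6.7e-05). The medians for both contrasts were -1.83 and -0.93.

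The AA3 genes had median changes nearer to 0 than those of the AA2 genes. The AA3 list holds predicted dehydrogenases as well as oxidases, so its values do not stand for sources of hydrogen peroxide alone. Of the 36 AA3 genes listed from the genome, 33 passed the filter on low counts. On Day 10 against Day 4, 8 were higher and 9 lower, with a median log2 fold change of 0.08, where 22.3% and 22.0% of all genes tested were. On Day 15 against Day 4, 5 were higher and 15 lower (median -0.31), against 28.6% and 29.2% of all genes. On Day 15 against Day 10, 2 were higher and 14 lower (median -0.41), against 11.7% and 12.4% of all genes. Leaving out the first or second Day 4 library left 4 and 5 AA3 genes higher on Day 10 than on Day 4, and leaving out the second Day 15 library left 9 lower on Day 15 than on Day 10. Without the second Day 4 library 3 were higher on Day 15 than on Day 4. The 2 higher on Day 15 than on Day 10 became 0 without the third Day 15 library, and 1 without the first control library, the second or the third Day 10 library, or the first or second Day 15 library. The AA3_2 gene 1349968 rose at both steps, with log2 fold changes of 2.03 on Day 10 against Day 4 (SE 0.22, edgeR adjusted p = 7.8e-06) and 0.68 on Day 15 against Day 10 (SE 0.18, edgeR adjusted p = 0.015). The second of these calls was lost without the third Day 15 library (0.65, edgeR adjusted p = 0.052). Gene 823803, an AA3_2 gene for a predicted secreted protein, fell by 2.18 on Day 15 against Day 4 (SE 0.12, edgeR adjusted p = 1.5e-08).

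The study's table of secreted enzymes holds 4 AA3 genes beside the AA5_1 genes, chosen on the same libraries. The AA3_3 alcohol oxidase 1364967 had mean log2 levels of 17.12 ± 0.05 on Day 4 (SD, n = 2), 16.14 ± 0.29 on Day 10 and 15.71 ± 0.02 on Day 15, and 10.76 ± 0.11 in the control (SD, n = 3 each). It was highest on Day 4 rather than Day 10 and fell by 0.93 on Day 10 against Day 4 (SE 0.15, adjusted p = 0.00022 by edgeR) and by 0.46 on Day 15 against Day 10 (SE 0.13, adjusted p = 0.025), a call lost without any 1 of the Day 15 libraries. The AA3_2 gene 1422328 had mean levels of 15.94, 16.52 and 14.83 on Days 4, 10 and 15, and 15.27 in the control. Its Day 10 difference from Day 4 did not pass (log2 fold change 0.69, SE 0.28, edgeR adjusted p = 0.057), although it did without the first or second Day 10 library (0.89 and 0.88, edgeR adjusted p = 0.016 and 0.022), and it fell by 1.78 on Day 15 against Day 10 (SE 0.25, edgeR adjusted p = 0.00035). Gene 1399288 had 0.34 (adjusted p = 0.12) and fell by 0.61 (adjusted p = 0.010) in the same contrasts by edgeR. Gene 1343556 rose by 0.46 on Day 10 (edgeR adjusted p = 0.0038, and 0.06 without the first Day 4 library) and had 0.01 on Day 15 against Day 10 (adjusted p = 0.97).

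**Figure D3:**
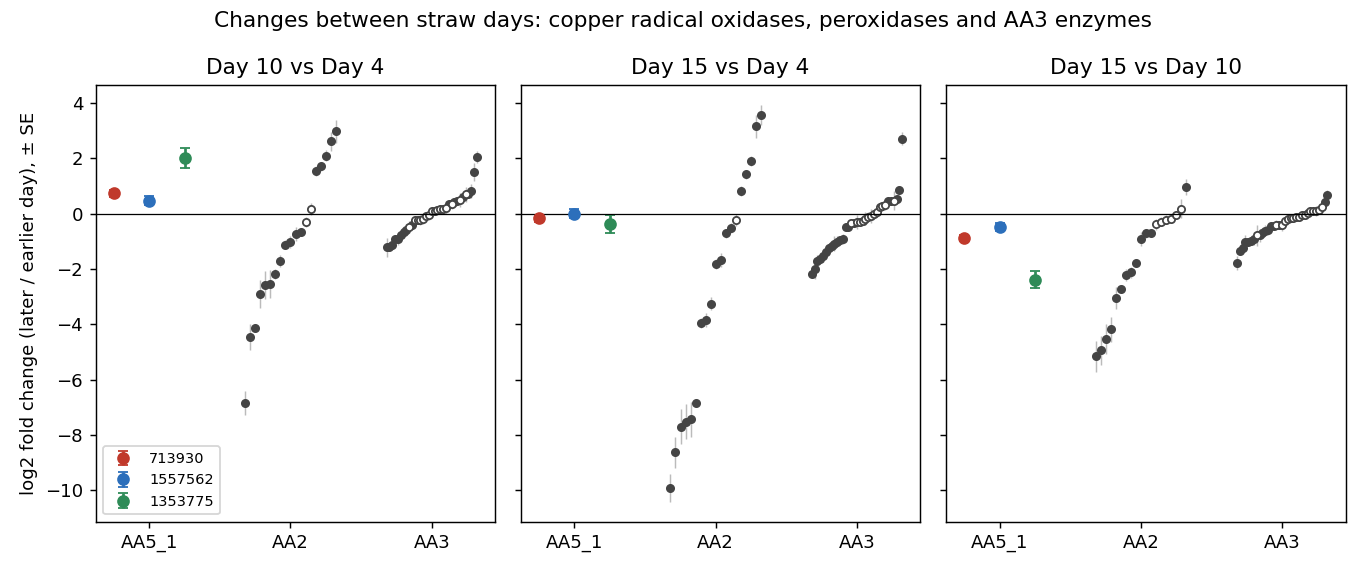
Log2 fold changes ± SE between straw days for the 3 AA5_1 genes (coloured points), the 19 AA2 genes and the 33 AA3 genes tested, each family sorted by value. Filled dark points passed an edgeR adjusted p of 0.05 and open points did not. The AA5_1 genes were above 0 for Day 10 vs Day 4 (0.47 to 2.00) and below 0 for Day 15 vs Day 10 (-0.48 to -2.39), while the AA2 genes spread down to -9.91 for Day 15 vs Day 4.

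The 15 other enzymes of the secreted set were also selected on these libraries. On Day 10 against Day 4, 5 were higher and 8 lower, against 22.3% and 22.0% of all genes tested. On Day 15 against Day 10, 1 was higher and 9 lower, against 11.7% and 12.4% of all genes. The 1 became 0 without the first or second Day 15 library. The 5 lytic polysaccharide monooxygenases of family AA9 listed by the study, which cleave cellulose and can use hydrogen peroxide, were chosen for high transcription on Day 4. Their median log2 fold change of -1.36 on Day 10 against Day 4 is therefore given without a test. The 20 single-copy genes of the study's phylogeny were looked at as a reference for the scaling. They were not chosen for steady transcription, so they cannot decide whether the scaling is right. On Day 15 against Day 4 their median log2 fold change was -0.18, where 713930 had -0.17. In that contrast 4 were higher and 8 lower, against 28.6% and 29.2% of all genes tested. Their medians were 0.03 on Day 10 against Day 4 and -0.07 on Day 15 against Day 10, with 3 higher and 3 lower in the first of these contrasts. In the second edgeR called 0 of 20, against 5 at an unadjusted p of 0.05 and 1 by DESeq2, and edgeR called 5 lower without the second Day 10 library. In the first, the higher genes numbered 0 without the second Day 4 library and 1 without the first Day 10 library, and 5 were lower without that Day 10 library.

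The genes with the most similar patterns were found by Pearson's r of log2 levels, a description over libraries that share their days. Over the 8 straw libraries, 713930 had r = 0.918 with 1557562 and 0.877 with 1353775, which stood at ranks 32 and 76 among all genes tested. Between 1557562 and 1353775 r was 0.648, and it was 0.968 over the 7 straw libraries left without the third Day 10 library. In those 7 libraries 713930 had r = 0.994 with 1353775 and 0.975 with 1557562. Gene 713930 was then the gene most like 1353775 among all genes tested. With all 8 straw libraries the closest genes were 1483717 (r = 0.981), 1402796 (0.979) and 1403018 (0.978) for 713930, 1484158 (0.962), 1478661 (0.957) and 1456734 (0.955) for 1557562, and 1225779 (0.994), 1483999 (0.991) and 1399045 (0.990) for 1353775. The tables used here give no function for these 9 genes. The 100 genes most like each, 0.647% of all genes tested, held too few genes for a count of AA2 or AA3 members to be read from them.

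Over all 11 libraries r mainly reflects the gap between straw and control, in which the libraries form separate clusters. The closest gene to both 713930 and 1557562 was 1384730, of no annotated function in the tables used here, with r = 0.999 each, followed for 713930 by 1487694, a permease of the major facilitator superfamily, and by 1557562 itself, and for 1557562 by 713930 and 1544098 (r = 0.999 each). For 1353775 the closest were 1357395 (0.983), 198329 (0.983) and 1346358 (0.982).

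The positions of the genes were looked up after their values had been seen. In the gene table of assembly Polbr1 (strain BRFM 1820), the 3 AA5_1 genes lie close together, in the order 1557562, 1353775 and 713930, within 32.6 kb. There are 3 genes between the first and the second and 7 between the second and the third. The table names no scaffold, and the genes were taken as neighbours because their rows follow each other with rising positions. Gene 1384730, the closest to both abundant genes over all libraries, is one of the 10 genes in between and lies 2 genes before 713930, with 1484454 separating them.

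Gene 1384730 followed the same course at a lower level. Its normalized counts were 29820 and 30321 on Day 4, 41729, 45283 and 44643 on Day 10 and 30087, 33033 and 30586 on Day 15, against 91, 109 and 90 in the control. The Day 10 libraries lay above all others, and Days 4 and 15 overlapped. By edgeR its log2 fold change was 0.57 on Day 10 against Day 4 (SE 0.11, adjusted p = 0.0010) and -0.49 on Day 15 against Day 10 (SE 0.10, adjusted p = 0.0030), and its difference from the control on Day 10 was 8.81 (SE 0.14). In the straw libraries alone it had r = 0.941 with 713930, 0.856 with 1557562 and 0.912 with 1353775.

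The gene directly before 1557562, 1384713, had mean log2 levels of 13.63, 12.29 and 12.01 on Days 4, 10 and 15, and 10.14 in the control. Of the 10 genes between the AA5_1 genes, 1384730 included, 8 were higher and 1 lower on Day 10 than in the control (31.5% and 31.1% of all genes tested), with a median log2 fold change of 1.58. Between Days 10 and 4, when 22.3% of all genes were higher and 22.0% lower, 6 were higher (median 0.63) and 0 lower by edgeR, as by DESeq2 and at an unadjusted p of 0.05, and between Days 15 and 10, 1 was higher and 2 lower (median 0.09; 11.7% and 12.4% of all genes). Of the 10 genes on the side of 1557562, 1 was higher and 5 were lower on Day 10 than on Day 4 (median -0.45). Of the 9 genes tested on the side of 713930, 1 was higher and 4 were lower (median -0.54). These small counts moved with single libraries, the 5 to 3 and the 4 to 1 without the second Day 4 library. Gene 1405552, which begins 14 bases after the end of 1557562, had mean log2 levels of 12.49, 12.51 and 12.17 on Days 4, 10 and 15, and 8.91 in the control. Whether reads of 1557562 that run past its end entered the count of 1405552 was not tested, and the strand setting of the counting is not known here. The gene that directly follows 713930, 713721, had between 24 and 103 normalized counts on straw, against 43 to 57 in the control.

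**Figure D4:**
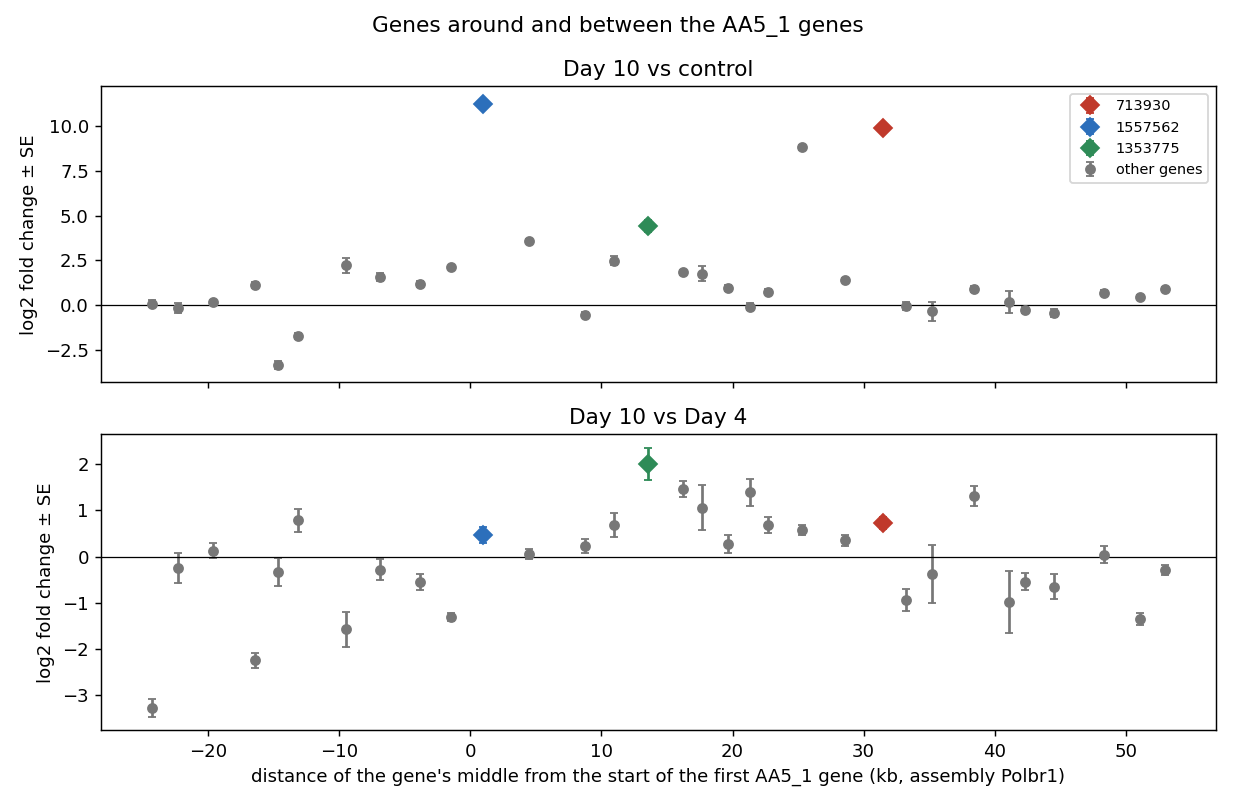
Log2 fold change ± SE of the genes tested around the 3 AA5_1 genes (coloured diamonds) against their distance from the start of 1557562, the first of them, in kb, for Day 10 vs control (upper panel) and Day 10 vs Day 4 (lower panel). Grey points are other genes, among them 1384730 at 8.81 in the upper panel, the only other gene there above 3.58.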

How the data were processed

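RNA of 11 cultures was analysed as counts of reads per gene that the authors deposited. Per the paper's methods and the submitters' processing notes, the authors trimmed the reads, mapped them with TopHat to the BRFM 1820 genome, kept unique mappings, counted them with HTSeq, and normalized with DESeq 1.5 (DESeq2 in the paper). Reads of near-identical genes can be lost by such counting, and gene sequences were not compared here. No source used here gives the TopHat or HTSeq version or the strand setting. The labels state 2 × 75 bp reads and the paper longer ones. Nothing but the paper's word says that the replicates are separate cultures, so p-values measure the spread between these libraries. No 2 replicates agreed within sampling noise (chi-square per gene of 6.30 or more), so none was treated as a repeat.

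Groups came from the labels. edgeR 4.0.16 (R 4.3.3) fitted 4 group means to all 11 libraries with TMM scaling, filterByExpr (minimum count 10, minimum total 15, 15462 genes kept), quasi-likelihood F tests (7 residual degrees of freedom) and a limit of 0.05 on the Benjamini-Hochberg adjusted p. The standard error (SE) was obtained by dividing a log2 fold change, without its sign, by the root of its F. Levels were computed as log2(normalized count + 1) after scaling by size factors from DESeq2 1.42.0. The code was tested on simulated data. Of the 18244 count table entries, 18240 matched locus tags of the gene table of assembly Polbr1, from which gene lengths and order were taken, and 1910 had no count in any library. Tables and figures were made with Python 3.11.15, pandas 2.3.3, numpy 2.4.6 and matplotlib 3.10.9.

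The AA5_1 genes, the lists and the tests were chosen with earlier results of these data known. The named genes were the 3 AA5_1 genes, for each the 3 genes with the highest r over the straw libraries and over all libraries, the extremes of each list among genes that passed in a contrast of straw days, and the other secreted AA3 genes. Genes 1384713, 1405552 and 713721, neighbours in the genome, were named after their values were seen. Alternatives were DESeq2 size factors or library totals as scaling, the DESeq2 Wald test, no filter or a minimum count of 50, a replicate block, a fit of only the groups compared, a pseudocount of 0.5, Spearman's rho, and each library left out in turn.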

Additional observations from a re-analysis of the deposited data

How the results depend on the processing

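Of 536 comparisons of a value of the AA5_1 genes with its alternatives, leaving out the differences between genes, 488 kept their direction and their side of the threshold or, for values without a test, stayed within 1 SD. Day 10 against Day 4 for 1557562 lost its call with DESeq2 size factors in edgeR (log2 fold change 0.44, adjusted p = 0.053) and with only the groups compared in the fit (0.49, adjusted p = 0.11). Day 15 against Day 10 did so with only the groups compared (-0.48, edgeR adjusted p = 0.062). Leaving out 1 library each gave 1557562 log2 fold changes of 0.37 to 0.61 for Day 10 against Day 4, -0.61 to -0.38 for Day 15 against Day 10 and -0.08 to 0.06 for Day 15 against Day 4. The last contrast, near 0, changed sign with library totals (0.10), a minimum count of 50 (0.02), the replicate block (0.08) and only the groups compared (0.01). For 1353775, Day 15 against Day 4 was called with only the groups compared (-0.36, edgeR adjusted p = 0.026) and ran between -0.47 and -0.30 with 1 library left out, where it was called only without the third Day 10 library. For the differences between AA5_1 genes over the 3 straw days, the share of variance between days ran from 0.807 to 0.955 (713930 and 1557562), 0.62 to 0.988 (713930 and 1353775) and 0.675 to 0.989 (1557562 and 1353775) with 1 library left out. The cause of these changes was not tested.

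Scaling by library totals moved the median over all genes (log2 fold change) to -0.45, -0.24 and -0.28 for Days 4, 10 and 15 against the control, against -0.07, -0.02 and -0.02 with TMM, and to 0.17 for Day 10 against Day 4, against 0.03. The Day 4 values against the control became 8.81 for 713930, 10.39 for 1557562 and 2.06 for 1353775, the Day 10 value of 713930 became 9.68, and the Day 15 values became 8.75, 10.49 and 1.79. Genes called higher and lower against the control numbered 2957 and 7436, 3554 and 6418, and 3766 and 6806 on Days 4, 10 and 15 with library totals, against 4650 and 4986, 4874 and 4802, and 5097 and 5107 with TMM. Without the second Day 15 library, 1153 and 1199 genes were higher and lower on Day 15 than on Day 10, against 1810 and 1915.

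With library totals, Day 4 levels were 17.42 for 713930, 16.68 for 1557562 and 9.20 for 1353775, and control levels 8.61 for 713930 and 7.14 for 1353775. With 1 library left out, 713930 had 17.52 to 17.69 on Day 4 and 8.24 to 8.44 in the control, 1557562 had 16.79 to 16.97 on Day 4, and 1353775 had 6.78 to 6.97 in the control. The Day 10 log2 fold change of 1353775 over the control ran between 3.83 and 4.67. In such fits a lone Day 4 library is assumed to vary like the other groups. Some counts over lists also moved by more than 1.5 times, among them AA3 genes higher on Day 10 than on Day 4 to 5 with only the groups compared (against 8), AA3 genes higher on Day 15 than on Day 4 to 8 with library totals (against 5), and single-copy genes lower in that contrast to 4 with library totals (against 8).

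Deviations of libraries with the same replicate number correlated at 0.0695, 0.0625 and 0.0411 between Days 10 and 15, where each correlated best with its own number, at 0.162 and 0.17 between Days 4 and 10, at 0.0564 and 0.0652 between Days 4 and 15, and at -0.0225 to 0.146 with the control. No groups with 3 shared numbers had every pair over the 0.1 required here, so the numbers were not taken to pair the libraries. The fit with the replicate block changed no call of an AA5_1 gene between straw days (Day 10 against Day 4: 0.77 for 713930, 0.55 for 1557562 and 1.70 for 1353775), gave 2.62 for 1353775 on Day 4 against the control, and called 2073 genes higher and 2144 lower on Day 15 than on Day 10, against 1810 and 1915.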
